A study of Mus musculus with 17 samples.

Results

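The genes described here are 9 secreted signals and 1 scavenger receptor of the chemokine system, measured in mouse C2C12 cells: Ackr3, Cxcl12, Cxcl1, Cxcl5, Ccl2, Ccl7, Il6, Lif, Csf1 and Tnfsf15. They were found by gene symbol in the table of raw counts, which holds 15062 genes, and all 10 were present. The list was chosen by measured values, since it was drawn up with earlier results of these same libraries known. The differences between lines given below therefore describe these libraries and are no independent evidence that the genes respond. C2C12 is an established myoblast line, cells that proliferate as single cells and can fuse into muscle fibres. All lines were grown in DMEM with 10% fetal bovine serum. They carried the retroviral vector pMSCV (3 libraries), SRF (3), or a fusion of SRF to a partner: SRF-RELA (3), SRF-FOXO1 (3), SRF-ICA1L (3) and SRF-PDGFRB (2). SRF is the transcription factor that binds CArG boxes, FOXO1 is a forkhead factor, RELA is a subunit of NF-kappaB, PDGFRB is a receptor kinase and ICA1L is a protein named for islet cell autoantigen 1. The labels give no clone or passage, nor which parts of SRF and its partners the fusions keep, and do not say whether replicates were separate cultures. The p-values measure the spread between these libraries, which may be technical.

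The libraries held between 20901442 and 23543734 counted reads. Levels are given as CPM, the reads of a gene as a share of all counted reads of its library, scaled between libraries by the TMM method. Srf was at 1128 ± 504 CPM (SD, n = 3) in the SRF line and at 81.3 ± 13.7 CPM (n = 3) in pMSCV, and between 70.5 and 279 CPM in the libraries of the fusions. Myod1, a defining myoblast factor, was detected in all 17 libraries, from 5.69 to 111 CPM. The summed level of 6 myoblast markers was 1487 to 1746 CPM in pMSCV, 721 to 1294 in SRF, 381 to 703 in SRF-RELA, 457 to 1063 in SRF-ICA1L and 223 to 294 in SRF-FOXO1. The SRF-PDGFRB libraries stood apart from each other, with 231 CPM in replicate 1 and 1986 CPM in replicate 2. Of 9 leukocyte and macrophage markers, 4 were in the table and summed to between 15.4 and 35.0 CPM, while Ptprc, Adgre1, Itgam, Tyrobp and Fcer1g had no row. Of 5 endothelial markers, 2 were in the table and summed to at most 2.81 CPM. The 6 fibroblast markers summed to between 548 and 7414 CPM. In bulk RNA, fewer cells that make a transcript and less of it per cell cannot be told apart.

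Chemokines are small secreted proteins that guide cells along gradients through receptors on the migrating cell. ACKR3 binds CXCL12, takes it into the cell and degrades it, so it shapes the gradient that CXCR4 reads. In muscle, myogenic cells and fibro-adipogenic cells release chemokines and cytokines after injury, and many of those genes, among them Cxcl1, Ccl2 and Il6, are textbook targets of NF-kappaB.

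The sequences before the transcription start were read from the RefSeq promoter table (GRCm38.p6, 250 bases before to 50 after the start), which matched 7 of the 10 genes: Ackr3, Cxcl12, Cxcl1, Il6, Lif, Csf1 and Tnfsf15. The 4 windows that held a match to the kappaB motif are shown 5′ to 3′ along the gene, with the match in capitals, because RELA is a subunit of NF-kappaB. As given below, Cxcl1, Il6 and Lif varied mostly with the replicate number and Csf1 with the line.
Cxcl1, chr5:90890995-90891294, plus strand: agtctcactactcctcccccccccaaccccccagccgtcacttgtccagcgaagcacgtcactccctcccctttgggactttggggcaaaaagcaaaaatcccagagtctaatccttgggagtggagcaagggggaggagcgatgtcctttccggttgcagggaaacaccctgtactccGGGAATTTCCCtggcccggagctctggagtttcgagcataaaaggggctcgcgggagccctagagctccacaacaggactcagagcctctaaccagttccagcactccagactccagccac
Il6, chr5:30012864-30013163, plus strand: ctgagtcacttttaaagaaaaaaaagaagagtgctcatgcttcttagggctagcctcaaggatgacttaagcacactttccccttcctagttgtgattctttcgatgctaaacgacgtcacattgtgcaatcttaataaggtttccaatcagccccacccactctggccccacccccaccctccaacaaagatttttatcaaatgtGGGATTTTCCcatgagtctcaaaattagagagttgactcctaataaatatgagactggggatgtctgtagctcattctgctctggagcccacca
Lif, chr11:4257318-4257617, plus strand: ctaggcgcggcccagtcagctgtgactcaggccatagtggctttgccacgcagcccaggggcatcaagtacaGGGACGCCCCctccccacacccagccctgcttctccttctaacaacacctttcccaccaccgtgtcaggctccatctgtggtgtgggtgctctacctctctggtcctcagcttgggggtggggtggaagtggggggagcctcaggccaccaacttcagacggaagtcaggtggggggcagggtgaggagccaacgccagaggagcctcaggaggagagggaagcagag
Csf1, chr3:107760420-107760719, minus strand: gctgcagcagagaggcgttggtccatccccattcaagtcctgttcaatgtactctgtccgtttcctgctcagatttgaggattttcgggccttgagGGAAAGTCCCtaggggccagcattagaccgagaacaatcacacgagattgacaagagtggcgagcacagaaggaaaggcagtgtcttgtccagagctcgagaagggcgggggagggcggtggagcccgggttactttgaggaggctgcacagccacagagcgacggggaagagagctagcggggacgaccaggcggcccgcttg
The kappaB match began 71 bases before the start in Cxcl1, with an overlapping match on the opposite strand, 44 before it in Il6, 178 before it in Lif and 154 before it, on the opposite strand, in Csf1. Of all 32851 promoter windows, 8.46% held a kappaB match on either strand. The AP-1 motif TGANTCA was found in Il6 and Lif (7.81% of all windows), and the E-box CAGCTG in Tnfsf15 and Lif (16.3%). The CArG box of SRF was in none of the 7 windows and in 1.63% of all windows. Such matches are letters in a short window and say nothing of binding.

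Ackr3 (ENSMUSG00000044337, chr1:90203980-90216751, plus strand, GRCm38, protein coding) was highest in pMSCV and lowest in SRF-FOXO1. It measured 139, 127 and 126 CPM in the pMSCV replicates 1, 2 and 3, and 74.7, 70.3 and 76.5 CPM in SRF. SRF-FOXO1 had 10.5, 9.71 and 9.19 CPM. Each of these sets was tight, and the SRF-FOXO1 libraries lay below every pMSCV and SRF library. SRF-ICA1L had 36.2, 28.9 and 63.1 CPM, SRF-RELA 25.0, 30.3 and 62.8 CPM, and SRF-PDGFRB 6.15 and 91.1 CPM. In these fusions too, no library reached the pMSCV range, and replicate 3 was the highest in both SRF-ICA1L and SRF-RELA. The group means ran from pMSCV (131 ± 7.40 CPM, SD, n = 3) through SRF (73.8 ± 3.18), SRF-PDGFRB (48.6 ± 60.1, n = 2), SRF-ICA1L (42.7 ± 18.0) and SRF-RELA (39.4 ± 20.5) to SRF-FOXO1 (9.78 ± 0.641).

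Against pMSCV, the log2 fold change of Ackr3 was -3.74 (SE 0.68) in SRF-FOXO1, with an adjusted p of 0.0336 in edgeR's quasi-likelihood test over all genes. This is a 13.4-fold difference between the group means. The call was lost when pMSCV replicate 1 or 3 or any 1 of the SRF-FOXO1 replicates was left out (adjusted p from 0.0513 to 0.154), while the fold change stayed between -3.79 and -3.69. The fold changes of the other lines were -1.73 in SRF-RELA, -1.61 in SRF-ICA1L, -0.82 in SRF and -1.43 in SRF-PDGFRB, with adjusted p between 0.512 and 0.990. The numbers of pMSCV, SRF, SRF-RELA and SRF-ICA1L paired these libraries, and with the replicate number as a block Ackr3 was called lower than pMSCV in SRF-ICA1L (-1.70, SE 0.26, adjusted p = 0.0129) and in SRF-RELA (-1.83, SE 0.27, adjusted p = 0.00519). In the same 12 libraries without the block, the adjusted p was 0.223 and 0.118. The SRF-FOXO1 line was below SRF in each of 3 pairs, with log2 differences of -2.83, -2.85 and -3.05. That difference had an adjusted p of 0.175 in the fit of all 17 libraries. With the 6 libraries of both lines alone it was 0.000610 without the block and 0.00728 with it, so that in these 6 libraries the call did not need the block. In SRF-PDGFRB the value rests on single libraries: without replicate 2 it was -4.41 (adjusted p = 0.0217), and without replicate 1 it was -0.53. Neighbours in the order of means did not pass the test, SRF-FOXO1 against SRF-RELA included (-2.01, adjusted p = 0.965), although their libraries did not overlap.

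**Figure D1:**
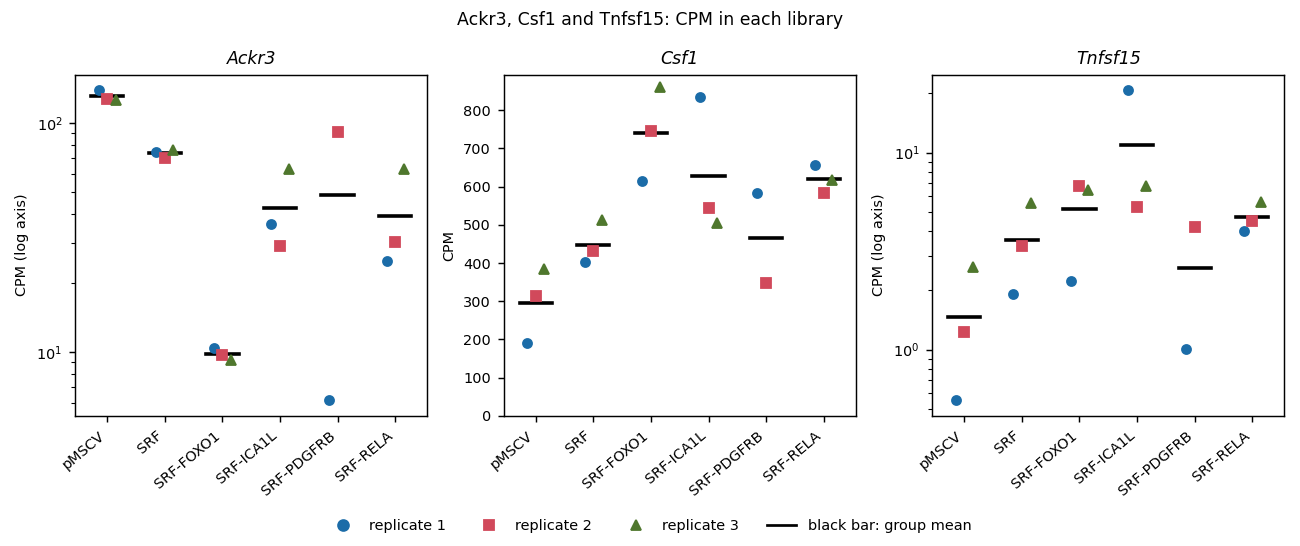
CPM of Ackr3, Csf1 and Tnfsf15 in each library by line, with replicate numbers as symbols and the group mean as a black bar; the axes of Ackr3 and Tnfsf15 are logarithmic and that of Csf1 starts at 0. Ackr3 lies above 125 CPM in pMSCV only and between 9.19 and 10.5 CPM in SRF-FOXO1, and the 2 SRF-PDGFRB libraries lie at 6.15 and 91.1 CPM.

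Across the 17 libraries, the genes whose level was most like that of Ackr3 were Cdh15, the muscle cadherin (Pearson's r of log2 CPM 0.972, Spearman's rho 0.939), Sema6a, a transmembrane semaphorin (0.966), and Khdrbs3, an RNA-binding protein (0.956), among 10063 genes compared. All points share their library, and the correlation is given as a description. Cdh15 had 206 to 392 CPM in pMSCV, 149 to 276 in SRF, 55.2 to 125 in SRF-RELA, 79.9 to 218 in SRF-ICA1L, 22.3 to 30.4 in SRF-FOXO1, and 12.9 and 412 CPM in SRF-PDGFRB. Both genes were at their lowest in SRF-PDGFRB replicate 1. Cdh15 is one of the myoblast markers whose summed level is given above. Of the 6, 1 was called lower in SRF-FOXO1 than in pMSCV, Itga7, an integrin of muscle cells (-2.06, SE 0.36, adjusted p = 0.0336). All 6 had a fold change below 0 there, with Cdh15 at -3.64 (adjusted p = 0.0531) and Myod1 at -2.88 (adjusted p = 0.106). The summed level of 8 markers of differentiating muscle was 124 to 250 CPM in pMSCV and 30.3 to 52.0 CPM in SRF-FOXO1, and none of the 8 was called there. This was not particular to SRF-FOXO1, since SRF (32.5 to 93.5 CPM) and SRF-ICA1L (47.2 to 78.0 CPM) also lay below pMSCV. SRF-RELA spanned 32.9 to 250 CPM, and SRF-PDGFRB 9.64 to 474 CPM. The part of these marker levels in the Ackr3 result was not tested.

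**Figure D2:**
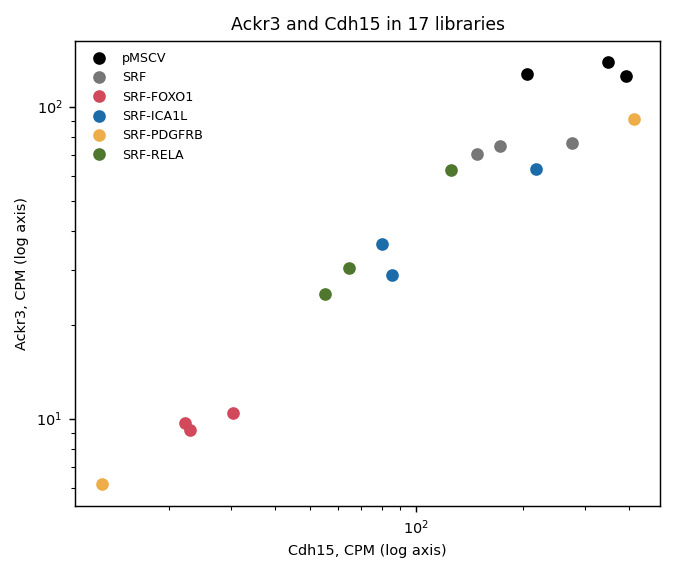
Ackr3 against Cdh15, both in CPM on logarithmic axes, 1 point for each of 17 libraries, coloured by line. The SRF-FOXO1 libraries and SRF-PDGFRB replicate 1 sit at the lower left, with Ackr3 between 6.15 and 10.5 CPM, and pMSCV sits at the upper right.

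Cxcl12 (ENSMUSG00000061353, chr6:117168535-117181367, plus strand), the ligand that ACKR3 removes, did not mirror Ackr3. It had 77.2, 458 and 28.5 CPM in pMSCV, 129, 95.6 and 49.0 CPM in SRF, and 342, 82.6 and 672 CPM in SRF-FOXO1. SRF-ICA1L had 52.0, 220 and 117 CPM, SRF-RELA 78.1, 347 and 191 CPM, and SRF-PDGFRB 75.4 and 95.8 CPM. The pMSCV libraries alone spanned 16.1-fold and overlapped every other line. The mean of SRF-FOXO1, 366 ± 295 CPM (SD, n = 3), was the highest, and its libraries lay on both sides of pMSCV replicate 2. Adjusted p was 0.581 against pMSCV and 0.262 against SRF (edgeR). SRF-FOXO1 replicate 3 and pMSCV replicate 2, the libraries highest in Cxcl12, also had the highest summed fibroblast markers (7414 and 5023 CPM). Within SRF the markers ran the other way, with 1068, 1543 and 2096 CPM in replicates 1, 2 and 3. The part of these marker levels in the Cxcl12 values was not tested. Cxcr4, the signalling receptor of CXCL12, was low, from 1.36 to 18.5 CPM, and its group means lay between 5.80 and 11.8 CPM.

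The genes most like Cxcl12 were Ephb6 (r = 0.961), Sesn1 (0.956) and Ccdc82 (0.947). Among the 10 genes, its closest partner was Cxcl5 (r = 0.90 over 17 libraries and 0.91 after taking out the group means). Cxcl5 (ENSMUSG00000029371, chr5:90759360-90761624, plus strand) encodes a chemokine that attracts neutrophils through CXCR2. It had 41.0, 195 and 22.2 CPM in pMSCV, 66.0, 76.2 and 36.8 CPM in SRF, and 131, 98.9 and 361 CPM in SRF-FOXO1. SRF-ICA1L had 64.4, 171 and 73.1 CPM, SRF-RELA 57.3, 276 and 128 CPM, and SRF-PDGFRB 121 and 60.3 CPM. Both genes peaked in SRF-FOXO1 replicate 3 and were lowest in pMSCV replicate 3. Every line overlapped pMSCV for Cxcl5, with log2 fold changes from -0.53 to 1.20 and adjusted p of at least 0.397 (edgeR).

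Cxcl1 (ENSMUSG00000029380, chr5:90891241-90893115, plus strand) lies 129616 bases beyond Cxcl5 and encodes the other CXCR2 ligand of the list. Its level followed the replicate number more than the line. It had 75.9, 275 and 9.11 CPM in pMSCV, 133, 202 and 10.9 CPM in SRF, and 105, 383 and 83.6 CPM in SRF-FOXO1. SRF-ICA1L had 99.3, 485 and 20.1 CPM, SRF-RELA 222, 603 and 33.3 CPM, and SRF-PDGFRB 497 and 11.0 CPM. In pMSCV, SRF, SRF-RELA and SRF-ICA1L, replicate 2 was the highest and replicate 3 the lowest in 4 of 4 lines, and 89.0% of the variance of log2 CPM in those 12 libraries lay between replicate numbers and 8.96% between lines. SRF-PDGFRB went the other way, with replicate 2 at 11.0 CPM.

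Within each replicate number, Cxcl1 was higher in SRF-RELA than in pMSCV, by 1.55, 1.13 and 1.86 on the log2 scale, and higher than in SRF, by 0.74, 1.58 and 1.60. With the replicate number as a block the difference from pMSCV was called (1.50, SE 0.27, adjusted p = 0.0115), and without the block it was 1.26 (SE 1.49, adjusted p = 0.926) in 17 libraries and 1.25 (adjusted p = 0.922) in the same 12. The difference from SRF was 1.26 (SE 0.27, adjusted p = 0.0654) with the block. Without it, leaving out single libraries moved the value against pMSCV from 0.09 to 2.76. In SRF-ICA1L too, Cxcl1 was above pMSCV within each number, by 0.39, 0.82 and 1.13, and was not called with the block. Against SRF, that line differed by -0.42, 1.26 and 0.87. SRF-FOXO1 was above pMSCV by 0.47, 0.48 and 3.18 in the same numbers, though no pairing was taken there. SRF and SRF-PDGFRB lay on both sides of pMSCV.

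Il6 (ENSMUSG00000025746, chr5:30013114-30019981, plus strand), the cytokine that signals through IL6R and gp130, resembled Cxcl1 most closely (r = 0.91, and 0.94 within groups). It was the least abundant gene of the list per kilobase of exon, at 1.04 CPM per kilobase against 102 for Cxcl1, and rested on 0 to 286 reads a library. It had 0.876, 5.07 and 0.140 CPM in pMSCV, 0.567, 3.75 and 0.804 CPM in SRF-FOXO1, and 3.32, 6.43 and 0.0458 CPM in SRF-ICA1L. SRF-RELA had 2.25, 13.1 and 0.280 CPM and SRF-PDGFRB 4.04 and 0.356 CPM. SRF had 0.454 and 1.60 CPM in replicates 1 and 2, and 0 reads in replicate 3, which allows a level of up to 0.131 CPM (3 reads, counting error only). Replicate 2 was again the highest and replicate 3 the lowest in the 4 paired lines. SRF-RELA exceeded SRF by 2.10, 2.96 and 2.02 on the log2 scale in the 3 pairs, and the blocked difference was 2.85 (SE 0.49, adjusted p = 0.0353). SRF was itself lower than pMSCV within each number, with log2 differences of -0.83, -1.61 and -1.34. SRF-RELA was above pMSCV by 1.28, 1.35 and 0.68 and was not called against it with the block. Since SRF replicate 3 had 0 reads, each log2 difference from that library depends on the prior count of 2 used for log2 CPM. SRF-ICA1L was above SRF by 2.65 and 1.95 in replicates 1 and 2. In replicate 3 it had 1 read against 0, so the direction of that pair is not known, and its 0.59 comes from the prior count. The blocked difference from SRF was 2.41 (SE 0.49, adjusted p = 0.134). The blocked difference between SRF-ICA1L and SRF-RELA was -0.44 (SE 0.43) and was not called. SRF-FOXO1 was above SRF by 0.27, 1.18 and 3.29. Without the block the difference between SRF-RELA and SRF was 2.92 (SE 1.71, adjusted p = 0.975), and between 0.88 and 4.49 when single libraries were left out.

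Lif (ENSMUSG00000034394, chr11:4257557-4272514, plus strand), another ligand of the gp130 family, signals through LIFR. It had 4.33, 5.42 and 3.41 CPM in pMSCV, 3.91, 9.55 and 3.92 CPM in SRF, and 1.31, 15.8 and 1.34 CPM in SRF-FOXO1. SRF-ICA1L had 9.68, 23.4 and 3.52 CPM, SRF-RELA 6.46, 13.2 and 2.94 CPM, and SRF-PDGFRB 11.9 and 3.87 CPM. Replicate 2 was the highest of its line wherever 3 replicates existed. The largest log2 fold change against pMSCV was 1.47 (SE 0.93) in SRF-ICA1L, with an adjusted p of 0.887, and 1.15 (SE 0.34, adjusted p = 0.100) with the block.

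**Figure D3:**
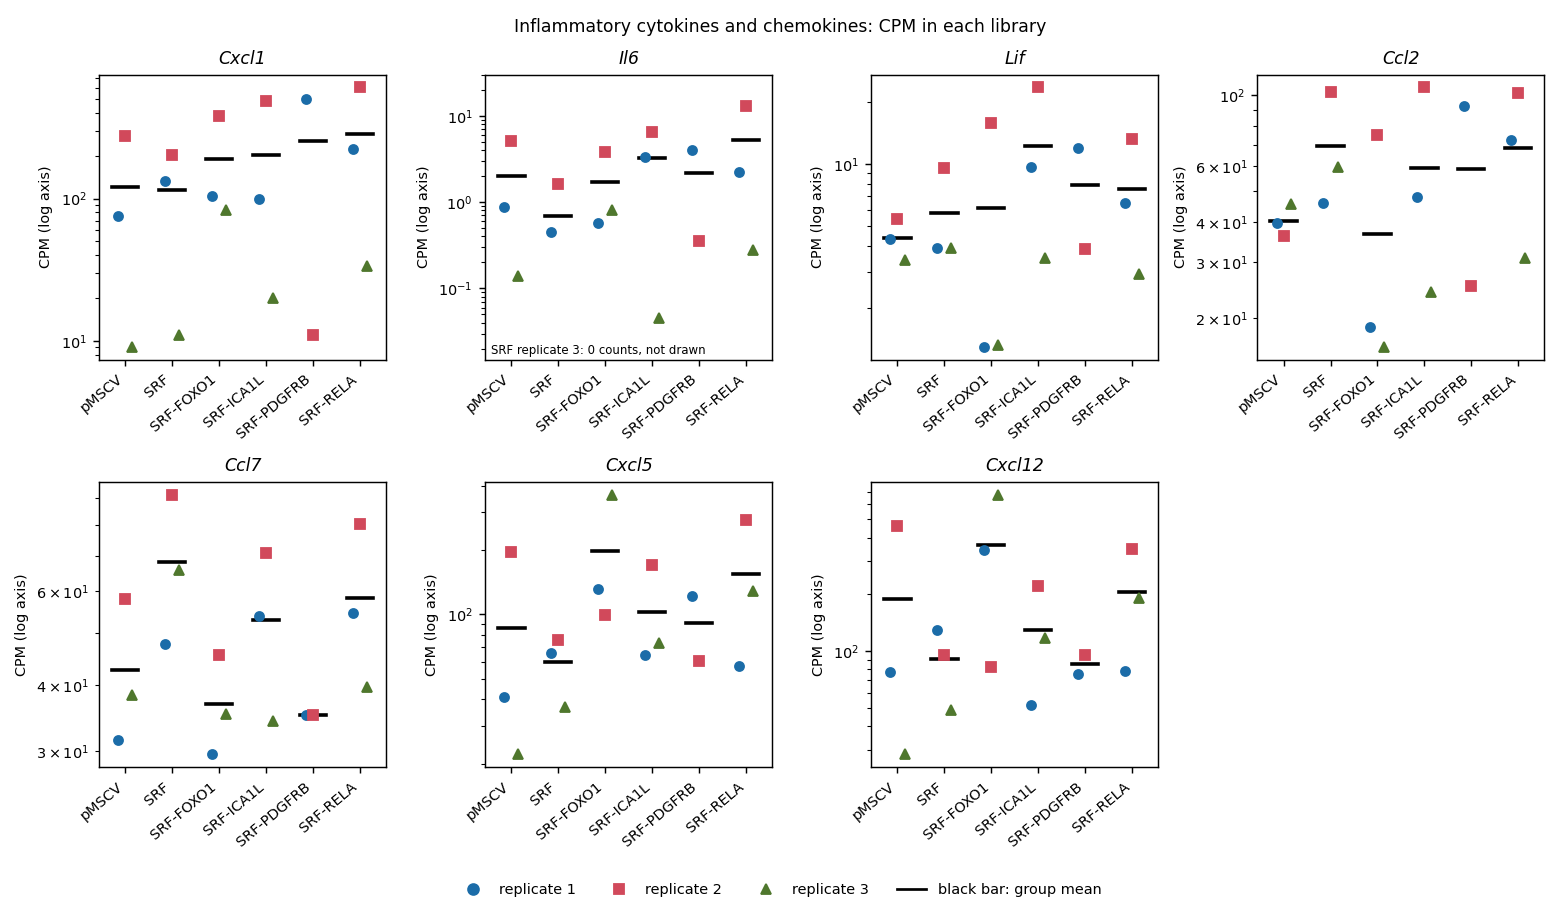
CPM on logarithmic axes of Cxcl1, Il6, Lif, Ccl2, Ccl7, Cxcl5 and Cxcl12 in each library by line, with replicate numbers as symbols and the group mean as a black bar. Replicate 2 lies above replicates 1 and 3 for Cxcl1, Il6 and Lif in every line with 3 replicates, and the SRF library with 0 Il6 reads is not drawn.

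Ccl2 and Ccl7 encode monocyte chemoattractants that bind CCR2, and lie 8258 bases apart on chromosome 11 (Ccl2, ENSMUSG00000035385, chr11:82035571-82037453; Ccl7, ENSMUSG00000035373, chr11:82045712-82047525; both plus strand). Ccl2 had 39.7, 36.1 and 45.5 CPM in pMSCV, 46.0, 103 and 59.7 CPM in SRF, and 18.7, 75.0 and 16.3 CPM in SRF-FOXO1. SRF-ICA1L had 48.2, 106 and 24.2 CPM, SRF-RELA 72.4, 101 and 31.0 CPM, and SRF-PDGFRB 92.6 and 25.2 CPM. All 3 SRF libraries lay above pMSCV, the closest by less than 1 CPM, while the fusions lay on both sides of it. Fold changes against pMSCV ran from -0.14 to 0.78 on the log2 scale, with adjusted p of at least 0.870 (edgeR).

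The genes most like Ccl2 were Dusp2 (r = 0.890), a phosphatase that acts on MAP kinases, Tnfaip3 (0.873), the NF-kappaB feedback inhibitor A20, and Zbtb11 (0.862). Among the 10 genes it was closest to Lif (r = 0.89, and 0.95 within groups) and next to its neighbour Ccl7 (0.72 and 0.70). Ccl7 had 31.5, 58.1 and 38.2 CPM in pMSCV, 47.8, 91.1 and 65.9 CPM in SRF, and 29.6, 45.6 and 35.3 CPM in SRF-FOXO1. SRF-ICA1L had 53.8, 70.8 and 34.2 CPM, SRF-RELA 54.5, 80.4 and 39.7 CPM, and SRF-PDGFRB 35.1 and 35.2 CPM. SRF had the highest mean (68.3 ± 21.8 CPM, SD, n = 3), and SRF-FOXO1 lay below SRF within each number, by at least 0.69 on the log2 scale. In the 6 libraries of both lines the blocked difference was -0.85 (SE 0.13, adjusted p = 0.0469), and without the block it was -0.88 (adjusted p = 0.0849). In the fit of all 17 libraries it was -0.89 (SE 0.33, adjusted p = 0.210), and the blocked fit of those 6 libraries was the 1 setting of 13 alternatives that called it.

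Csf1 (ENSMUSG00000014599, chr3:107741048-107760469, minus strand), the growth factor of the macrophage lineage, was the most abundant secreted signal of the list along with Cxcl1 (both 102 CPM per kilobase of exon). It had 190, 314 and 384 CPM in pMSCV, 402, 431 and 512 CPM in SRF, and 615, 746 and 860 CPM in SRF-FOXO1. SRF-ICA1L had 834, 545 and 505 CPM, SRF-RELA 657, 582 and 617 CPM, and SRF-PDGFRB 583 and 349 CPM. Only SRF-PDGFRB replicate 2 reached into the pMSCV range, and every library of the other 4 lines lay above it. The order of means was pMSCV (296 ± 98.2 CPM, SD, n = 3), SRF (448 ± 57.0), SRF-PDGFRB (466 ± 166, n = 2), SRF-RELA (619 ± 37.2), SRF-ICA1L (628 ± 180) and SRF-FOXO1 (740 ± 123).

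Against pMSCV the log2 fold change of Csf1 was 1.32 in SRF-FOXO1 (SE 0.27, adjusted p = 0.0426, edgeR), 1.06 in SRF-RELA (adjusted p = 0.393), 1.08 in SRF-ICA1L (0.587), 0.60 in SRF (0.990) and 0.65 in SRF-PDGFRB (0.625). The call in SRF-FOXO1 was lost without pMSCV replicate 1 or 3 or any 1 of the SRF-FOXO1 replicates (adjusted p from 0.0541 to 0.196), and with these 2 lines fitted alone (0.110). Csf1 was higher than pMSCV within each replicate number in SRF, SRF-RELA and SRF-ICA1L, the lines that pair with it. With the block, SRF-RELA was called higher (1.08, SE 0.26, adjusted p = 0.0345) and SRF-ICA1L was at 1.10 (adjusted p = 0.0519). In the same 12 libraries without the block, SRF-RELA was at 1.07 (adjusted p = 0.193). The replicate number accounted for 1.37% of its variance in 12 libraries and the line for 72.9%. Genes most like Csf1 were Rcn2 (r = 0.959), Smad9 (0.904) and Spata13 (0.892). The receptor gene Csf1r was nearly silent, from 0.0461 to 2.39 CPM. Il34, which encodes the other ligand of CSF1R, went the opposite way: 24.0 ± 6.45 CPM in pMSCV (SD, n = 3) against 8.56 ± 1.54 in SRF-FOXO1, 10.8 ± 1.59 in SRF-ICA1L and 8.51 ± 3.62 in SRF-RELA. Its blocked log2 fold change was -1.14 in SRF-ICA1L (adjusted p = 0.0148) and -1.52 in SRF-RELA (adjusted p = 0.00331), and the calls were not made without the block (adjusted p = 0.662 and 0.393).

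Tnfsf15 (ENSMUSG00000050395, chr4:63727084-63745113, minus strand) encodes TL1A, a ligand of the TNF family. It was a low gene, with 12 to 431 reads a library. It had 0.553, 1.23 and 2.62 CPM in pMSCV, 1.91, 3.34 and 5.53 CPM in SRF, and 2.22, 6.75 and 6.47 CPM in SRF-FOXO1. SRF-ICA1L had 20.8, 5.31 and 6.73 CPM, SRF-RELA 4.02, 4.47 and 5.64 CPM, and SRF-PDGFRB 1.01 and 4.18 CPM. All libraries of SRF-ICA1L and SRF-RELA lay above pMSCV, and SRF-ICA1L replicate 1 stood far above every other library. The log2 fold change in SRF-ICA1L was 2.89 (SE 0.73, adjusted p = 0.601), and 2.97 (SE 0.66, adjusted p = 0.0442) with the block, while the same 12 libraries without it gave an adjusted p of 0.264. It was 2.02 to 3.60 when single libraries were left out. Values of 1.81 in SRF-FOXO1, 1.68 in SRF-RELA, 1.29 in SRF and 0.82 in SRF-PDGFRB did not pass the test (adjusted p from 0.171 to 0.990). Leaving out pMSCV replicate 1 or 3 moved the value in SRF-FOXO1 to 1.42 or 2.52, and that in SRF-RELA to 1.29 or 2.39. Across the 17 libraries Tnfsf15 was most like Csf1 among the 10 genes (r = 0.73, and 0.50 within groups). Its receptor gene Tnfrsf25 was at 0.274 to 6.33 CPM.

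**Figure D4:**
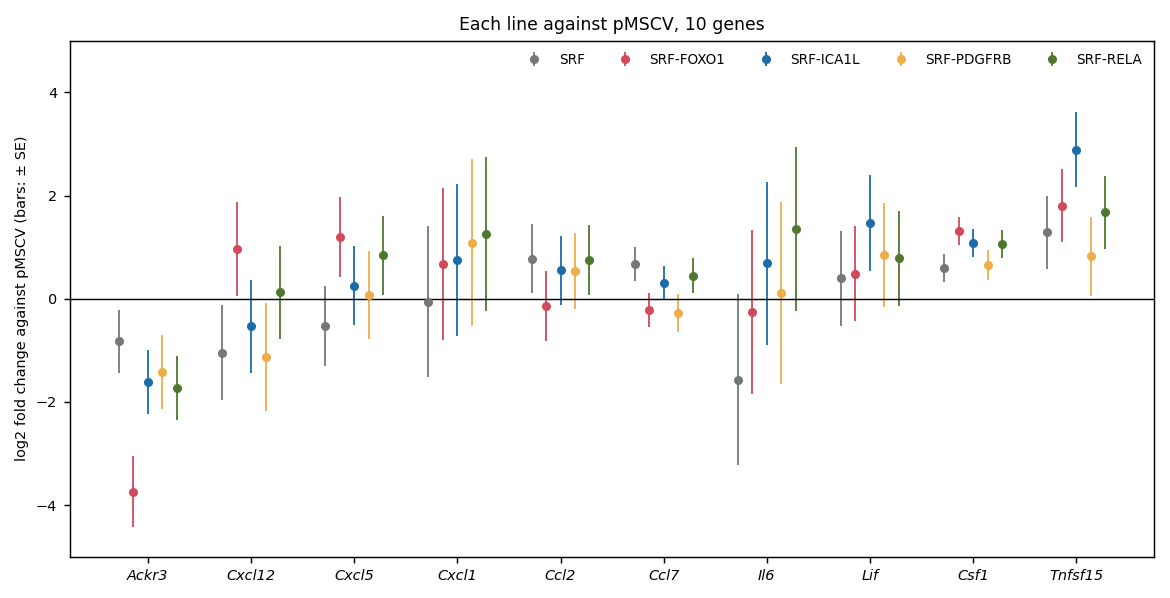
Log2 fold change of each line against pMSCV for the 10 genes, with bars of 1 SE from the fit without the replicate block. Ackr3 is below 0 and Csf1 and Tnfsf15 are above 0 in all 5 lines, and the bars are widest for Cxcl1 and Il6. The 5 comparisons share the 3 pMSCV libraries.

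Counted together, 2 of the 10 genes passed an adjusted p of 0.05 in SRF-FOXO1 against pMSCV (Ackr3 lower, Csf1 higher), where 0.710% of all genes did. In the other comparisons with pMSCV none passed in edgeR's test, against 0.0199% of all genes in SRF-PDGFRB, 0.00664% in SRF, and 0% in both SRF-RELA and SRF-ICA1L. None passed against SRF, where the share of all genes was 0.0531% in SRF-PDGFRB, 0.00664% in both SRF-RELA and SRF-FOXO1, and 0% in SRF-ICA1L. At an unadjusted p under 0.05 stood 3 of the 10 genes in SRF-FOXO1 against pMSCV (20.9% of all genes), 3 in SRF-RELA (8.05%), 3 in SRF-ICA1L (6.23%), 1 in SRF (3.34%) and 1 in SRF-PDGFRB (7.70%). Against SRF, 4 did in SRF-FOXO1 (19.2% of all genes), 1 in SRF-PDGFRB (5.03%), 1 in SRF-ICA1L (1.56%) and 0 in SRF-RELA (3.21%). DESeq2 called Ackr3 and Csf1 in SRF-FOXO1 against pMSCV (9.07% of all genes), Csf1 and Tnfsf15 in SRF-ICA1L against pMSCV (0.318% of all genes), Csf1 in SRF-RELA against pMSCV (0.770%) and Ackr3 in SRF-FOXO1 against SRF (4.30%). It called none of the 10 in SRF (0.0266%) or SRF-PDGFRB (0.475%) against pMSCV, nor in SRF-ICA1L (0.0133%), SRF-PDGFRB (0.386%) or SRF-RELA (0.0599%) against SRF.

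With the replicate block, 2 genes were called in SRF-ICA1L against pMSCV (Ackr3 and Tnfsf15; 2.81% of all genes), 3 in SRF-RELA against pMSCV (Ackr3, Cxcl1 and Csf1; 6.07%), 1 in SRF-RELA against SRF (Il6; 0.657%) and, in 6 libraries, 2 in SRF-FOXO1 against SRF (Ackr3 and Ccl7; 1.61%). The first 3 of these come from the 12 libraries of the paired lines, in which no gene of the table was called in those comparisons without the block. By ranges alone, 3 of the 10 genes did not overlap pMSCV in SRF (9.16% of all genes), 3 in SRF-RELA (11.1%), 3 in SRF-ICA1L (10.2%), 2 in SRF-FOXO1 (23.0%) and 1 in SRF-PDGFRB (15.9%). Ackr3 was among them in every line. In the 6 comparisons between fusion lines, edgeR called none of 60 gene values, and 5 had an unadjusted p under 0.05: 2 in SRF-FOXO1 against SRF-PDGFRB (3.87% of all genes), 1 in SRF-FOXO1 against SRF-RELA (2.51%), 1 in SRF-PDGFRB against SRF-ICA1L (2.20%) and 1 in SRF-FOXO1 against SRF-ICA1L (5.94%). None did in SRF-PDGFRB against SRF-RELA (2.70%) or SRF-ICA1L against SRF-RELA (0.159%). At the adjusted threshold, 0.0266% of all genes were called in SRF-FOXO1 against SRF-PDGFRB, 0.0332% in SRF-PDGFRB against SRF-ICA1L, 0.00664% in SRF-PDGFRB against SRF-RELA and 0% in the others.

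The 10 genes fell into sets by the samples in which they were high. In the 12 libraries of pMSCV, SRF, SRF-RELA and SRF-ICA1L, the line accounted for 79.8% of the variance of log2 CPM of Ackr3, 72.9% of Csf1 and 68.7% of Tnfsf15. The replicate number accounted for 89.0% in Cxcl1, 81.1% in Il6, 62.7% in Lif, 55.6% in Ccl7, 53.3% in Cxcl5, 46.3% in Cxcl12 and 42.7% in Ccl2. Over all genes the medians were 19.5% for the line and 49.6% for the replicate number, so the last 4 of those values lay on both sides of the median gene. What differed between the numbered sets is not given in the labels. Replicate 2 was the highest of its line in 4 of 4 lines for Cxcl1, Cxcl5, Ccl7, Il6 and Lif, and in 3 of 4 for Cxcl12 and Ccl2. Ackr3 and Csf1 ran in opposite directions (r = -0.75, and -0.50 within groups).

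**Figure D5:**
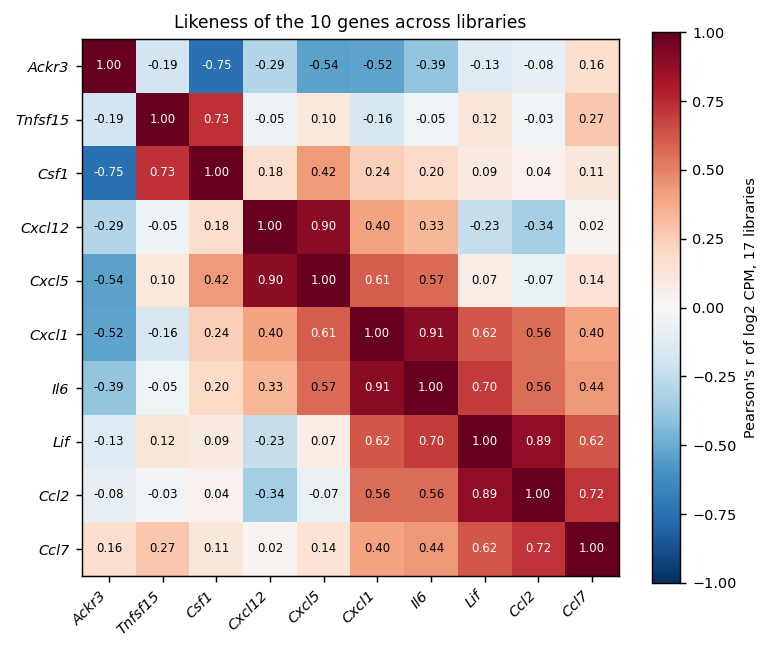
Pearson's r of log2 CPM over 17 libraries for each pair of the 10 genes, as colour and number. Cxcl1 with Il6 (0.91), Cxcl12 with Cxcl5 (0.90) and Ccl2 with Lif (0.89) are the closest pairs, and Ackr3 with Csf1 (-0.75) is the most opposed; the points share libraries and lines.

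Other genes of these pathways were taken from 5 lists: receptors (8 of 17 in the table), other chemokines (10 of 28), other cytokines (22 of 38), NF-kappaB response genes (21 of 23) and STAT3 response genes (11 of 15). In edgeR's test without the block none of the 72 genes was called in any of the 9 comparisons with pMSCV or SRF. At an unadjusted p under 0.05 stood 16 of 72 in SRF-FOXO1 against pMSCV, 11 of them higher, which is 22.2% against 20.9% of all genes. DESeq2 called 6 of the 72 higher and 3 lower there (9.07% of all genes), and 6 higher and 1 lower against SRF (4.30% of all genes). In SRF-RELA against pMSCV it called 1 higher and 1 lower (0.770% of all genes). It called none in the other comparisons, where the share of all genes was between 0.0133% and 0.475%. In SRF-RELA against pMSCV, 6 of 72 had an unadjusted p under 0.05 (8.33%, against 8.05% of all genes). Of the NF-kappaB response genes, 12 of 21 were above pMSCV in that line, with a median log2 fold change of 0.19 against -0.01 for all genes. In SRF-ICA1L 16 of 21 were above pMSCV (median 0.27), and in SRF-PDGFRB 15 of 21 (median 0.34). In SRF-FOXO1 it was 10 of 21 (median -0.02), and in SRF 9 of 21 (median -0.07).

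Receptor genes were mostly higher in SRF-FOXO1 than in pMSCV, 7 of 8 by direction, with a median log2 fold change of 1.18 against 0.00 for all genes. Of these 8, 5 had an unadjusted p under 0.05 in edgeR's test (20.9% of all genes). The other fusions leaned the same way against pMSCV, with 8 of 8 higher in SRF-RELA (median 0.55). In SRF-ICA1L 6 of 8 were higher (median 0.49), in SRF-PDGFRB 6 of 8 (median 0.22) and in SRF 2 of 8 (median -0.30). Il6st, the gp130 subunit shared by IL6 and LIF, averaged 300.4 ± 67.1 CPM in SRF-FOXO1 (SD, n = 3), while pMSCV averaged 190 ± 17.3 CPM (SD, n = 3), a log2 fold change of 0.66 (adjusted p = 0.0991). Osmr, the oncostatin M receptor, had 118 ± 69.9 CPM against 44.8 ± 37.4 CPM (adjusted p = 0.176). Lifr had 131 ± 67.8 CPM against 67.5 ± 52.3 CPM. Fold changes in the STAT3 response genes, which act downstream of gp130, had a median of 0.07 in the same comparison, with 6 of 11 higher.

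With the replicate block, Cx3cl1, the membrane-bound chemokine fractalkine, was called higher than pMSCV in SRF-ICA1L (0.83, adjusted p = 0.0284) and SRF-RELA (0.82, adjusted p = 0.0171) and higher than SRF in SRF-RELA (1.04, adjusted p = 0.0305). Traf1, an adaptor of TNF receptors, and Cd40, a TNF receptor family member, both NF-kappaB targets, were called lower than pMSCV in SRF-ICA1L (-2.34 and -1.73) and SRF-RELA (-1.86 and -2.29). Both were low genes whose means were highest in pMSCV. Traf1 averaged 8.79 CPM there and between 1.47 and 3.48 CPM in the other lines. Cd40 averaged 1.95 CPM there and between 0.257 and 1.22 CPM in the other lines. Junb was called higher than pMSCV in SRF-RELA (1.06, adjusted p = 0.0164), and Cebpd higher than SRF in SRF-FOXO1 (1.57, adjusted p = 0.0469). With the block the myoblast markers Myod1, Cdh15, Des and Itga7 were called lower than pMSCV in both SRF-ICA1L and SRF-RELA. Of the markers of differentiating muscle, Myog was called lower in both (-2.44 and -3.05) and Myh3 in SRF-RELA (-3.13). Lyz2, a marker of macrophages, was called higher in SRF-RELA (2.42, SE 0.41, adjusted p = 0.00858), at no more than 8.50 CPM in any library. Their part in these results was not tested.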

How the data were processed

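RNA from 17 libraries of C2C12 lines was prepared with a stranded mRNA kit and sequenced, per the labels' protocols. The deposited table holds raw read counts per gene for all 17 libraries. Every gene in it had at least 10 counts in at least 3 libraries, and all 10 members were among them. The submitters' processing notes name Trimmomatic 0.39, HISAT2 2.12.1, featureCounts from Subread 2.0.0 and GRCm38. The counting strand is not given in the sources used here, so reads of overlapping antisense genes cannot be told apart. Members and lists were chosen with earlier results of these data known. Beside the 10 genes, the text names called genes of each list (up to 6) or else the 3 with the highest mean CPM, and the 3 genes most like Ackr3, Cxcl12, Csf1 and Ccl2, among genes with a mean of at least 5 CPM. The receptor genes Cxcr4, Csf1r and Tnfrsf25 were added for their ligands. A called gene of these lists is not reported here.

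Counts were tested with edgeR 4.0.16 (R 4.3.3, TMM, quasi-likelihood, robust, 1 term per line, all 17 libraries, no further filter) and p adjusted by Benjamini-Hochberg over 15062 genes. The common biological coefficient of variation was 36.5%. Correlations and the log2 differences within a replicate number used log2 CPM with a prior count of 2. Coordinates are from GENCODE on GRCm38, which the submitters name. Alternatives were DESeq2 1.42.0, other scalings, a filter of 1 CPM, fewer libraries and a replicate block. Same-numbered libraries deviated together from their group means in all 6 pairings of pMSCV, SRF, SRF-RELA and SRF-ICA1L (r from 0.392 to 0.789, other numbers at most 0.114), and in SRF with SRF-FOXO1 (r from 0.220 to 0.330), so the numbers were taken as pairs there. The numbers come from the sample titles, while the lines to be paired were chosen from these same libraries. The blocked calls therefore rest on a design that was picked from the data. No pairing was taken for SRF-FOXO1 with pMSCV (r of 0.170, -0.195 and 0.013 in replicates 1, 2 and 3) or for SRF-PDGFRB.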

Additional observations from a re-analysis of the deposited data

How the results depend on the processing

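The 17 log2 fold changes followed here kept their direction in all 224 alternative values, and 11 of those lost a call and 14 gained one. Leaving out 1 library decided the calls of SRF-FOXO1 against pMSCV: the count of the 10 genes was 0 to 2, and 0 without pMSCV replicate 1, pMSCV replicate 3 or any SRF-FOXO1 replicate, while the fold change of Ackr3 stayed between -3.79 and -3.69 and that of Csf1 between 1.08 and 1.55. In the same comparison the 72 pathway genes gave 0 to 2 calls (2 without pMSCV replicate 2). For fits with 1 library left out, the share of all genes called is not given here, so such counts cannot be set against it. For SRF-PDGFRB against pMSCV the 10 genes gave 0 to 1 (1, Ackr3, without SRF-PDGFRB replicate 2).

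DESeq2 called 2 of the 10 genes in SRF-ICA1L against pMSCV (0.318% of all genes). It called 1 in SRF-RELA against pMSCV (0.770%) and 1 in SRF-FOXO1 against SRF (4.30%). Of the pathway genes it called 9 in SRF-FOXO1 against pMSCV (9.07% of all genes). It called 2 in SRF-RELA against pMSCV (0.770%) and 7 in SRF-FOXO1 against SRF (4.30%). The replicate block over all 17 libraries gave 6 pathway genes in SRF-FOXO1 against pMSCV. No pairing was taken for that comparison, and the share of all genes called in that fit is not given here. The replicate block in 12 libraries gave 2 of the 10 genes and 5 pathway genes in SRF-ICA1L against pMSCV, 3 and 6 in SRF-RELA against pMSCV, and 1 and 1 in SRF-RELA against SRF, and in the 6 libraries of SRF-FOXO1 and SRF it gave 2 and 2. The 12 libraries without the block called none of the 10 or of the pathway genes. The block changed no other call of the 10 genes. Against pMSCV, Ackr3 in SRF-ICA1L and SRF-RELA and Cxcl1 in SRF-RELA were each called in 1 of 14 alternatives, the block in 12 libraries. The same held for Il6 in SRF-RELA against SRF. Csf1 in SRF-RELA and Tnfsf15 in SRF-ICA1L, both against pMSCV, were called in 2 of 14, that block and DESeq2. Fitting the 2 groups alone gave 1 of the 10 genes in SRF-FOXO1 against pMSCV (Ackr3), and 1 of the 10 and 3 pathway genes against SRF. For these fits too the share of all genes called is not given here, so the counts cannot be set against it. The cause of these changes was not tested. Other scalings moved the median of all genes by at most 0.03 on the log2 scale. Depth limits Il6 and Tnfsf15, with as few as 0 and 12 reads a library.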
